A study of Mus musculus with 8 samples.

Results

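The mouse mitochondrial genome carries 37 genes, and all of them were followed here through RNA-seq and ribosome footprint libraries of pancreatic tumour cells. They were taken as every gene that the count files place on the chromosome MT, 37 of 55536 genes in each file, and comprise 13 protein-coding genes (mRNAs), 22 transfer RNA (tRNA) genes and 2 ribosomal RNA (rRNA) genes. The cells were KRPC-A, a PDAC-like line (pancreatic ductal adenocarcinoma) grown from a tumour of genetically engineered mice on a C57BL/6 background. The groups were Gcn2 KO cells in leucine-free medium, Gcn2 KO cells in replete medium, Gcn2 WT cells in leucine-free medium and Gcn2 WT cells in replete medium, each after 1 h in that medium. Every group gave 1 RNA-seq library and 1 footprint library, so a ratio sets one library against another and no spread between cultures could be measured. All groups share the tumour background of the line, and the sources used here do not say how the knockout was made or whether the KO cells are 1 clone.

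Mitochondrial DNA is transcribed from both strands into long precursors, and most of its mRNAs and rRNAs are freed when the tRNAs that lie between them are cut out. Its mRNAs encode core subunits of the respiratory chain and of ATP synthase and are translated inside the organelle by mitochondrial ribosomes, whose 2 rRNAs also come from this genome. All proteins needed to copy, transcribe, process and translate it come from nuclear genes. GCN2, encoded by Eif2ak4, is a cytosolic kinase that senses uncharged tRNA and slows initiation on cytosolic ribosomes. Cycloheximide, present in the lysis buffer at 100 µg/mL per the labels, stops cytosolic ribosomes and not mitochondrial ones. Footprint libraries hold RNA fragments that survive ribonuclease, and fragments of rRNA and tRNA enter them too, so a footprint-library count on a tRNA or rRNA gene is not a count of translating ribosomes.

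The RNA-seq libraries held 49136610 to 60680169 counted reads and the footprint libraries 2671491 to 9993211, fewest in WT leucine-free cells. Levels are given as CPM, the reads of a gene per 1000000 reads on protein-coding genes after TMM scaling within an assay. Because rRNA reads are not in that denominator, rRNA levels can be very high on this scale. Eif2ak4 RNA was 16.7 and 13.6 CPM in KO cells without and with leucine, against 69.7 and 85.7 CPM in WT cells without and with leucine. Its footprints were 16.2 and 7.26 CPM in KO cells, against 65.2 and 60.2 CPM in WT cells, in the same order of media. Of 9 ductal and epithelial markers 6 were measured in RNA-seq and Epcam was listed at 0 in all 4 libraries, with a summed level of 244.3 to 1104 CPM over libraries. Acinar, immune and endothelial markers had 0 measured genes among 7, 5 and 4, and 3 of 7 fibroblast and mesenchyme markers were measured (Col1a1, Col1a2 and Pdgfrb, summed 58.1 to 66.0 CPM). The part of these marker levels in the results below was not tested. In bulk samples, fewer mitochondria per cell and less RNA per mitochondrion cannot be told apart, and all values are relative to the other genes of the same library.

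Only 21 of the 37 genes had a mean of at least 30 reads over the 4 libraries of an assay, the limit for calling a gene measured here. These were 7 mRNAs, both rRNAs and 12 tRNAs: 20 genes were measured in RNA-seq, 19 in footprints and 18 in both. Another 11 genes were listed at 0 in all 8 libraries, and 5 had some reads but stayed under the limit. A stretch of nuclear chromosome 1 overlaps this set by position. In the annotation used for counting (GRCm38), 7 genes on chr1:24611535-24616197, minus strand, lie in the same order and at the same spacing, to within 1 nt, as mitochondrial genes in MT:6381-11043, and both stretches span 4663 nt. Of the mRNAs, 6 lie wholly inside that mitochondrial stretch, 2 partly and 5 outside it. Reads that fit several places or several genes were not counted under the settings in the file headers, and the sequences of the stretches were not compared here, so a gene listed at 0 is not shown to be silent.

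All 6 mRNAs wholly inside the stretch stayed under the limit. These are mt-Co2 and mt-Co3 of cytochrome c oxidase, mt-Atp6 and mt-Atp8 of ATP synthase, and mt-Nd3 and mt-Nd4l of complex I. Mt-Atp8, mt-Atp6, mt-Co3 and mt-Nd4l were listed at 0 in all 8 libraries. Mt-Co2 had 14 RNA reads in KO leucine-free cells and 0 in the other 3 RNA-seq libraries, and its footprints were 1 read in WT leucine-free cells and 0 elsewhere. Mt-Nd3 had 1 RNA read in all. In the same place as mt-Nd3, the chromosome 1 gene Gm28438 held 43844, 52554, 50862 and 32726 RNA reads in KO leucine-free, KO replete, WT leucine-free and WT replete cells. Whether those reads are of mt-Nd3 was not tested. The other 6 chromosome 1 genes had at most 288 RNA reads in a library. Some mitochondrial genes outside the stretch were also at 0: of the 7 tRNAs at 0 in all libraries, mt-Ts1, mt-Td, mt-Tk and mt-Tg lie inside it and mt-Tw, mt-Ty and mt-Th outside.

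All 5 mRNAs outside the stretch (mt-Nd1, mt-Nd2, mt-Nd5, mt-Nd6 and mt-Cytb) and both that lie partly in it (mt-Co1 and mt-Nd4) were measured in both assays. The tRNA genes are 59 to 75 nt long, and 14 of the 22 abut or overlap a neighbour, so a read that spans a junction of a precursor was not counted for either gene. Counting ignored strand, so reads from mt-Nd6, the single mRNA on the minus strand, could not be told from antisense RNA of the plus-strand precursor, and the same holds for the 8 minus-strand tRNAs. Mt-Nd5 and mt-Nd6 overlap by 14 nt, mt-Atp8 and mt-Atp6 by 43 nt, and mt-Nd4l and mt-Nd4 by 7 nt.

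**Figure D1:**
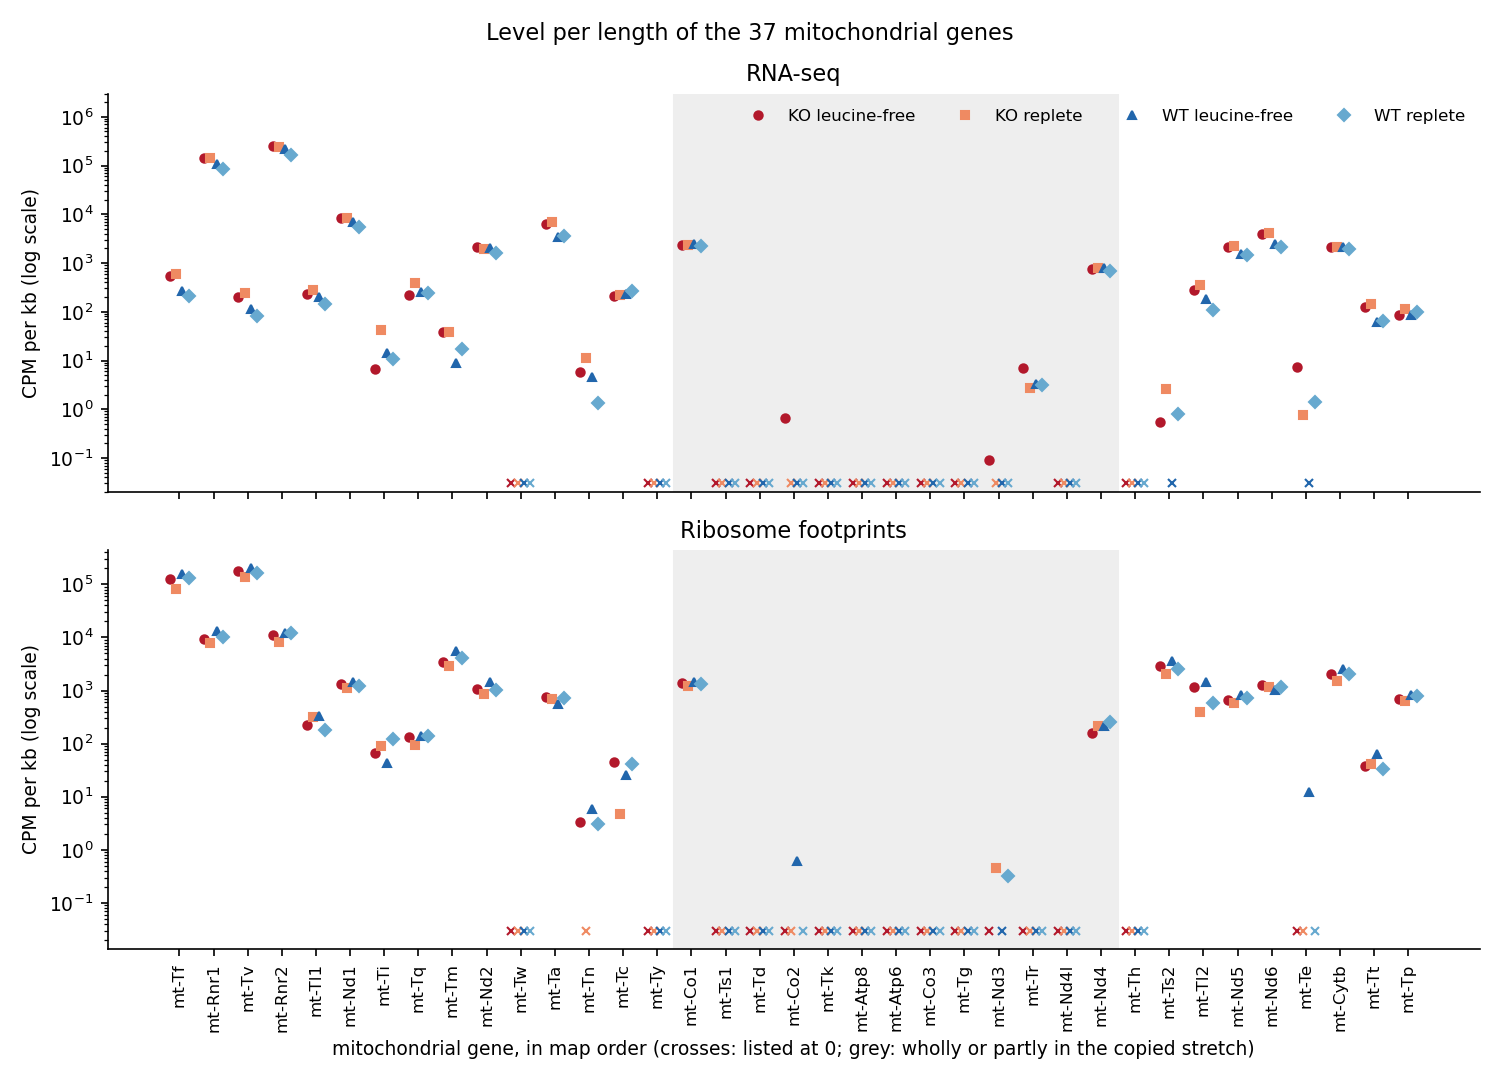
Level of each of the 37 mitochondrial genes in CPM per kb of gene (log axis) in RNA-seq (top) and footprint libraries (bottom), in map order, with 1 point per library and crosses for genes listed at 0. Grey marks the genes wholly or partly in the stretch that has a counterpart on chromosome 1; between mt-Co1 and mt-Nd4 no gene reached the limit of a mean of 30 reads, and mt-Tf and mt-Tv stand highest in footprints.

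As classes, the genes divided the 2 assays very differently. In RNA-seq the rRNAs took 33.6% and 33.3% of all counted reads in KO leucine-free and KO replete cells, and 30.5% and 24.7% in WT leucine-free and WT replete cells. The mRNAs took 1.48% and 1.52% in KO cells without and with leucine, and 1.36% and 1.26% in WT cells in the same media. The tRNAs took 0.0362% and 0.0416% in KO cells and 0.0228% and 0.0245% in WT cells, leucine-free medium first. Within mitochondrial reads the rRNAs made up 95.1 to 95.7% over the 4 RNA-seq libraries. WT replete cells thus had the lowest mRNA and rRNA shares of the 4. The mRNA shares rest on the 7 measured mRNAs, since the 6 wholly inside the stretch matched on chromosome 1 had almost no counted reads. Reads on Gm28438 are not in these shares. They are therefore shares of counted reads and do not give the make-up of all mitochondrial RNA.

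Footprint libraries carried far fewer mitochondrial reads in all, and counted tRNA reads outnumbered counted mRNA reads in each of them. Here too the mRNA class rests on the 7 measured mRNAs. All 37 genes together took 5.46%, 4.10%, 6.06% and 5.33% of footprint reads in KO leucine-free, KO replete, WT leucine-free and WT replete cells. The mRNAs took 0.847% and 0.703% in KO cells without and with leucine, and 0.932% and 0.807% in WT cells. The rRNAs took 2.54% and 1.94% in KO cells and 2.87% and 2.61% in WT cells. The tRNAs took 2.07% and 1.46% in KO cells and 2.26% and 1.91% in WT cells. KO replete cells had the lowest share of every class, and the exact (Clopper-Pearson) 95% counting intervals of the total, such as 4.09 to 4.11% in KO replete and 5.31 to 5.34% in WT replete cells, did not overlap. The intervals reflect counting error alone, since each group is 1 library, and they take every read as a separate draw. Amplified reads that carry no molecular identifiers cannot be taken as separate molecules, so the intervals may be too narrow.

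**Figure D2:**
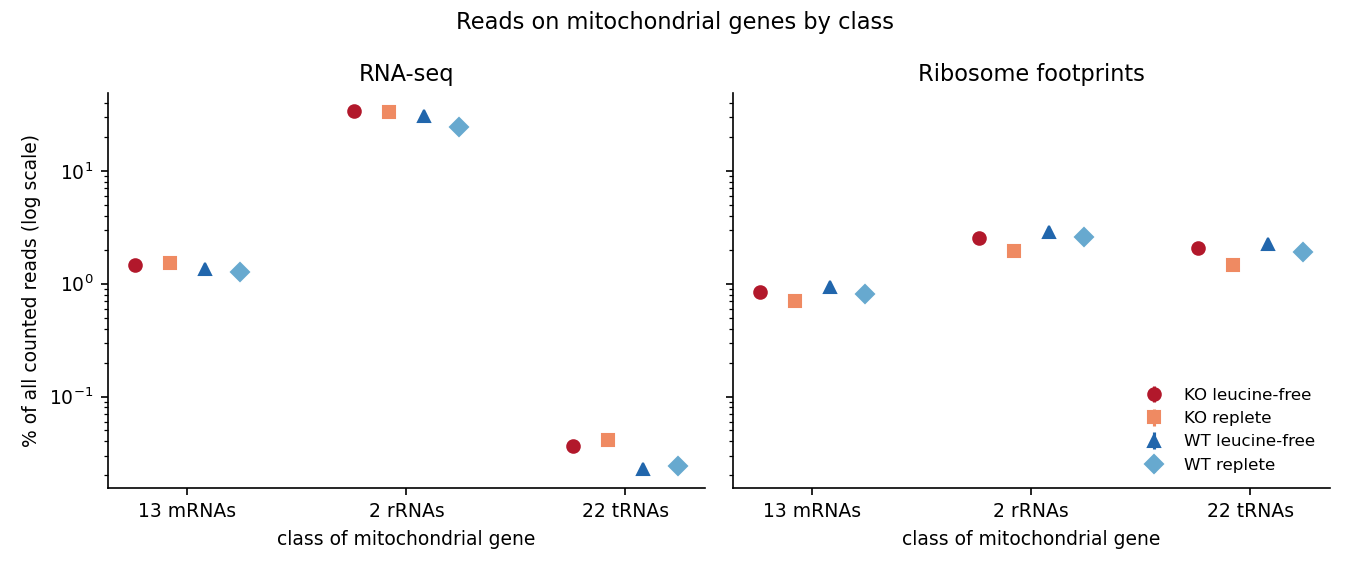
Share of all counted reads (percent, log axis) on the 13 mRNAs, 2 rRNAs and 22 tRNAs in each RNA-seq (left) and footprint (right) library, with 1 point per library; counting intervals are smaller than the points. The tRNA share is 0.0228 to 0.0416% in RNA-seq and 1.46 to 2.26% in footprints. The mRNA share rests on 7 measured genes of the 13.

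The 2 rRNAs, mt-Rnr1 of the small and mt-Rnr2 of the large mitochondrial ribosomal subunit, are transcribed side by side with mt-Tv between them. Mt-Rnr1 (MT:70-1024) had 141900 and 143200 CPM per kb of RNA in KO leucine-free and KO replete cells, and 108400 and 85630 in WT leucine-free and WT replete cells. Mt-Rnr2 (MT:1094-2675) had 251100, 238800, 222200 and 162000 CPM per kb in the same order. Both were lowest in WT replete cells. Per length, the RNA ratio of mt-Rnr2 to mt-Rnr1 was 1.77 and 1.67 in KO cells without and with leucine, and 2.05 and 1.89 in WT cells. In footprint libraries the same ratio was 1.19 and 1.05 in KO cells, and 0.898 and 1.16 in WT cells. The rRNA content of RNA-seq libraries also depends on how rRNA was removed, which the sources used here do not give, and its part in these levels was not tested.

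Among the measured mRNAs, mt-Nd1 was highest in RNA per length in every library and mt-Cytb led in footprints. Mt-Nd1 encodes a membrane subunit of complex I, and mt-Cytb encodes cytochrome b, the catalytic core of complex III. Mt-Nd1 RNA was 8520 and 8538 CPM per kb in KO leucine-free and KO replete cells, and 7086 and 5366 in WT leucine-free and WT replete cells. Mt-Cytb RNA was 2135, 2106, 2156 and 1905 CPM per kb in the same order, a narrow range across the 4 libraries. Its footprints were 2063 and 1522 CPM per kb in KO cells without and with leucine, and 2557 and 2030 in WT cells. Mt-Nd1 footprints were 1328 and 1095 CPM per kb in KO cells and 1432 and 1214 in WT cells. Counted within a library, where scaling has no effect, mt-Nd1 had 3.34 and 3.39 RNA reads per mt-Cytb read in KO cells and 2.75 and 2.36 in WT cells, but 0.538 and 0.602 footprints per mt-Cytb footprint in KO cells and 0.468 and 0.5004 in WT cells. The order of these genes was thus opposite in the 2 assays in all 4 pairs of libraries.

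Mt-Co1 encodes the catalytic subunit of cytochrome c oxidase and was the most even of the measured mRNAs across libraries in both assays. Its RNA was 2308 and 2372 CPM per kb in KO leucine-free and KO replete cells, and 2410 and 2249 in WT leucine-free and WT replete cells. Its footprints were 1390, 1200, 1467 and 1330 CPM per kb in the same order. Only 1053 of its 1545 nt lie outside the stretch matched on chromosome 1, and per kb of that part its RNA was 3301 to 3536 CPM and its footprints 1761 to 2152 CPM; on that length it stood above mt-Cytb in KO replete footprints (1761 against 1522 CPM per kb). Mt-Nd4, with 501 of 1378 nt outside the stretch, was the lowest of the 7 in both assays per full length, with 678.4 to 798.1 CPM per kb of RNA and 155.3 to 254.5 CPM per kb of footprints. Per kb outside the stretch, its RNA was 1866 to 2195 CPM and its footprints 427.1 to 699.9 CPM.

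Per full length, the complex I genes mt-Nd2, mt-Nd5 and mt-Nd6 lay between these extremes. Per kb outside the stretch the order changed. On that length mt-Nd5 was lowest in RNA-seq of WT leucine-free and WT replete cells, and mt-Nd2 in KO replete cells. In KO replete footprints mt-Nd5 was lowest, at 575.4 against 580.7 CPM per kb for mt-Nd4. Mt-Nd2 RNA was 2103 and 1981 CPM per kb in KO leucine-free and KO replete cells, and 1988 and 1616 in WT leucine-free and WT replete cells. Mt-Nd2 footprints were 1070, 877.8, 1442 and 1032 CPM per kb in the same order. Mt-Nd5 RNA was 2162 and 2200 CPM per kb in KO cells, and 1565 and 1466 in WT cells, with no overlap between genotypes. Mt-Nd5 footprints were 651.1 and 575.4 CPM per kb in KO cells, and 824.4 and 724.5 in WT cells, so the genotypes separated in both assays and in opposite directions. Mt-Nd6 RNA separated them further, with 3919 and 4047 CPM per kb in KO cells and 2501 and 2157 in WT cells. Its footprints were 1293 and 1189 CPM per kb in KO cells, and 1042 and 1179 in WT cells, lowest in WT leucine-free cells.

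Footprint CPM divided by RNA CPM gives the footprint-to-RNA ratio, the measure called translation efficiency for nuclear mRNAs. For the summed mRNAs it was 0.384 and 0.320 in KO leucine-free and KO replete cells, and 0.514 and 0.517 in WT leucine-free and WT replete cells. Mt-Cytb had the highest ratio in every library, 0.967 and 0.723 in KO cells and 1.19 and 1.07 in WT cells without and with leucine. Mt-Nd1 had the lowest, 0.156 and 0.128 in KO cells and 0.202 and 0.226 in WT cells. The mRNAs therefore spanned 4.71-fold to 6.20-fold within a library. For mt-Co1 the ratio was 0.603 and 0.506 in KO cells, and 0.609 and 0.591 in WT cells. For mt-Nd5 it was 0.301 and 0.262 in KO cells, and 0.527 and 0.494 in WT cells. Mt-Nd6 had 0.330 and 0.294 in KO cells, and 0.417 and 0.546 in WT cells. Mt-Nd2 had 0.509 and 0.443 in KO cells and 0.725 and 0.638 in WT cells, and mt-Nd4 had 0.206 and 0.265 in KO cells and 0.284 and 0.375 in WT cells. Of 9099 protein-coding genes measured in both assays, the KO value was below the WT value for 4538 in leucine-free and 4366 in replete medium. It was below the WT value in both media for all 7 mitochondrial mRNAs. However, the leucine-free values of mt-Co1 differed by less than counting error and were reversed by total-count scaling (0.15 on the log2 scale). With that scaling the replete values of mt-Co1 also differed by less than counting error (-0.01, interval -0.042 to 0.028).

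**Figure D3:**
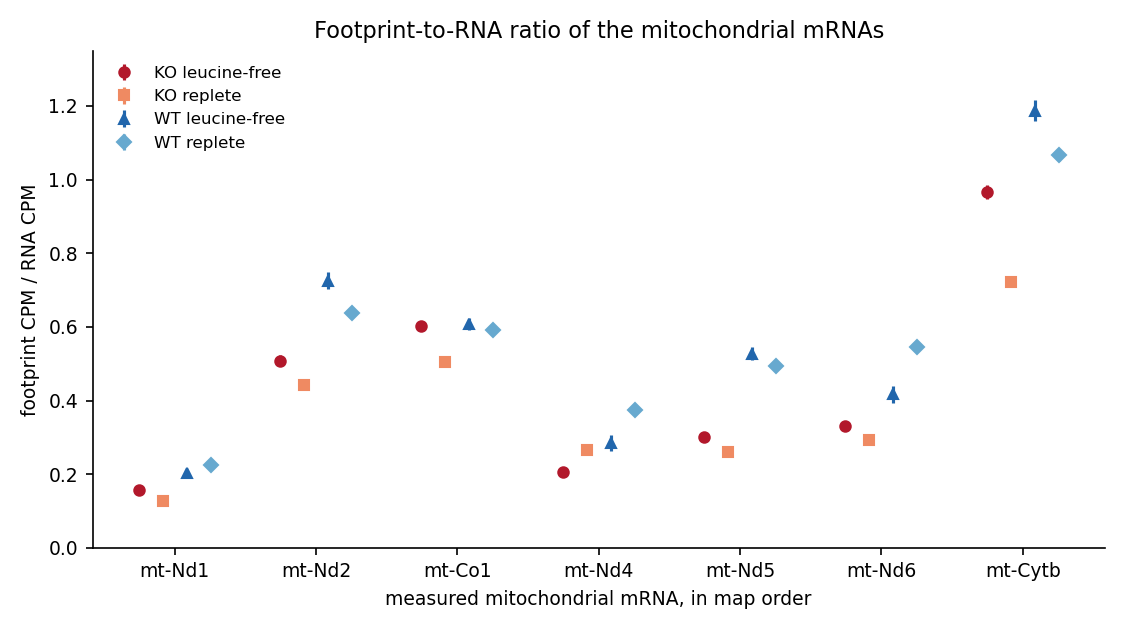
Footprint CPM divided by RNA CPM for the 7 measured mitochondrial mRNAs, with 1 point per pair of libraries and 95% counting intervals. Mt-Cytb is highest (0.723 to 1.19) and mt-Nd1 lowest (0.128 to 0.226) in every pair, and KO points lie below the WT point of the same medium, for mt-Co1 in leucine-free medium by less than counting error.

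The tRNAs showed the widest contrast between assays. Mt-Tf, the phenylalanine tRNA (ENSMUSG00000064336, MT:1-68), and mt-Tv, the valine tRNA (ENSMUSG00000064338, MT:1025-1093), flank mt-Rnr1 on either side. Together they held 97.2% and 96.9% of tRNA footprint reads in KO leucine-free and KO replete cells, and 96.7% and 97.1% in WT leucine-free and WT replete cells. In RNA-seq they held 8.85% and 8.81% of tRNA reads in KO cells, and 7.65% and 6.04% in WT cells. Mitochondrial tRNA-Val in human and tRNA-Phe in pig are known as structural parts of the large mitochondrial ribosomal subunit. Mt-Tv had 54268 and 61126 footprint-library reads in KO leucine-free and KO replete cells, and 33243 and 104647 in WT leucine-free and WT replete cells. Its RNA reads numbered 423, 639, 315 and 240 in the same order. Mt-Tf had 37487, 36557, 25040 and 80933 footprint-library reads, and 1150, 1526, 741 and 609 RNA reads, in that order of groups. Relative to mt-Rnr1 reads of the same footprint library, mt-Tv gave 1.39, 1.25, 1.08 and 1.18 reads and mt-Tf gave 0.958, 0.746, 0.812 and 0.910, so both tRNAs matched the whole rRNA within a factor of 2 although mt-Rnr1 is many times longer.

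Other tRNAs also differed by assay. Mt-Ta, the alanine tRNA, made up 76.3% and 73.6% of tRNA reads in RNA-seq of KO leucine-free and KO replete cells, and 70.7% and 74.1% in WT cells, but 0.153 to 0.309% of tRNA reads in footprint libraries. Its RNA level was 436.9 and 472.0 CPM in KO cells and 239.8 and 247.8 CPM in WT cells. Mt-Tm (methionine) had 236.5, 198.1, 379.5 and 285.9 CPM in footprint libraries of KO leucine-free, KO replete, WT leucine-free and WT replete cells, against 0.614 to 2.71 CPM in RNA-seq. Mt-Ts2, a serine tRNA, had 732, 780, 511 and 1361 footprint-library reads in the same order and at most 6 RNA reads in a library. Mt-Tp (proline) had 42.6 to 55.2 CPM in footprint libraries and 5.65 to 7.57 CPM in RNA-seq. Mt-Tc (cysteine) ran the other way, with 13.6 to 17.8 CPM in RNA-seq and 0.309 to 3.01 CPM in footprints. Mt-Tq (glutamine) had 15.5 to 28.1 CPM in RNA-seq and 6.64 to 10.03 CPM in footprints, and mt-Tt (threonine) had 4.17 to 9.55 and 2.21 to 4.18 CPM in those assays.

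The KO and WT cells were first compared in replete medium, to ask what loss of Gcn2 goes with when amino acids are present. In RNA-seq every class of mitochondrial RNA was higher in KO than in WT cells. The log2 ratio was 0.45 (95% counting interval 0.45 to 0.46) for the summed mRNAs, 0.61 (0.60 to 0.61) for the rRNAs and 0.94 (0.91 to 0.97) for the tRNAs. The RNA-seq tRNA sum is mostly mt-Ta, and without mt-Ta it was at 0.965 (0.906 to 1.024). A gene was called past the 2-fold rule if its counting interval left out 0 and its log2 ratio reached 1 in either direction, and 6 of 20 measured members passed it. All 6 were tRNAs and higher in KO cells, against 7.88% of all 12250 measured genes passing in either direction and 4.75% passing higher. They were mt-Ti (isoleucine) with 114 KO and 31 WT reads and a log2 ratio of 1.99 (1.43 to 2.63), mt-Tl2 (leucine) at 1.72, mt-Tv at 1.54, mt-Tf at 1.46, mt-Tm at 1.18 and mt-Tt at 1.15. Scaled by total counted reads 5 passed, without mt-Tt at 0.97, and with a limit of a mean of 100 reads 4 passed. No mRNA or rRNA passed. The mRNA log2 ratios were 0.91 for mt-Nd6, 0.67 for mt-Nd1, 0.59 for mt-Nd5, 0.29 for mt-Nd2, 0.23 for mt-Nd4, 0.14 for mt-Cytb and 0.08 for mt-Co1. The median over the 20 members was 0.74, against 0.00 over all measured genes. Scaled by total counted reads, rRNA included, the mRNA sum was at 0.28 and mt-Co1 and mt-Cytb at -0.10 and -0.03.

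Footprints in the same comparison lay on the other side of 0. The log2 ratio of KO over WT replete cells was -0.24 (-0.26 to -0.23) for the summed mRNAs, -0.47 (-0.48 to -0.46) for the rRNAs and -0.44 (-0.45 to -0.43) for the tRNAs. The footprint tRNA sum is mostly mt-Tf and mt-Tv, so it describes other genes than the RNA-seq tRNA sum. For mt-Tf and mt-Tv together the log2 ratio was -0.44 in footprints and 1.48 in RNA-seq. Of 19 measured members 17 were below 0, against 4742 of all 9489 measured genes. Of the 19 members 0 passed, against 3.16% of all measured genes. Mt-Cytb stood at -0.42, mt-Nd5 at -0.33, mt-Nd4 at -0.27, mt-Nd2 at -0.23, mt-Nd1 and mt-Co1 both at -0.15, and mt-Nd6 at 0.01. The median was -0.32, against 0.00 over all measured genes. The footprint-to-RNA ratio of the summed mRNAs had a log2 ratio of -0.70 (-0.71 to -0.68). For single members it was below 0 in 18 of 18 (17 of 18 with total-count scaling, mt-Tl1 excepted). Of the 9261 genes measured in both assays, 4471 were below 0. Among the members 8 passed (both rRNAs and 6 tRNAs, all lower), against 1.78% of the 9261 genes passing in either direction and 1.1% passing lower. With total-count scaling 6 passed, all tRNAs, and mt-Rnr1 and mt-Rnr2 were at -0.90 and -0.86. The 7 mRNAs had a median of -0.56 and their lowest value was -0.92, of mt-Nd5.

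In leucine-free medium the same contrast was smaller in RNA. The log2 ratio of KO leucine-free over WT leucine-free cells was 0.21 (0.20 to 0.21) for the summed mRNAs, 0.23 for the rRNAs and 0.76 (0.72 to 0.79) for the tRNAs. Without mt-Ta the tRNA sum was at 0.456 (0.393 to 0.518). Of 20 measured members 4 passed, against 10.6% of all measured genes. Mt-Tm was higher with 84 KO and 25 WT reads and a log2 ratio of 2.12 (1.48 to 2.85), mt-Tf and mt-Tt were both higher at 1.03, and mt-Ti was lower with 14 KO and 40 WT reads at -1.09 (-2.11 to -0.21). Mt-Nd6 and mt-Nd5 again had the highest mRNA ratios, 0.65 and 0.47, and mt-Nd1 followed with 0.27. Scaled by total counted reads, 2 of the 4 passed, without mt-Tf and mt-Tt, both at 0.94. The mRNA and rRNA sums were then at 0.12 and 0.14. Mt-Nd2 was at 0.08, mt-Cytb at -0.01, mt-Nd4 at -0.03 and mt-Co1 at -0.06.

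Footprints of KO over WT cells in leucine-free medium were again below 0 as classes, at -0.22 for the summed mRNAs, -0.25 for the rRNAs and -0.20 for the tRNAs on the log2 scale. Of 19 measured members 0 passed, against 7.39% of all measured genes. Below 0 lay 16 of the 19, against 4825 of all 9489 measured genes. Mt-Nd4 was lowest of the mRNAs at -0.50, then mt-Nd2 at -0.43, mt-Nd5 at -0.34 and mt-Cytb at -0.31. Mt-Nd6 was the exception at 0.31 (0.22 to 0.41). Scaled by total counted reads, the class values were -0.14, -0.18 and -0.12, and mt-Co1 moved to 0.00. The footprint-to-RNA ratio of the summed mRNAs was -0.42 (-0.44 to -0.40; -0.26 with total-count scaling), and 3 of 18 members passed, against 6.3% of genes measured in both assays: mt-Tf and mt-Tm lower, mt-Ti higher. Over both media, the interval of the KO over WT footprint ratio lay below 0 for 6 of 7 mRNAs and both rRNAs. With total-count scaling the leucine-free footprint intervals of mt-Nd1 (-0.093 to 0.032) and mt-Co1 (-0.048 to 0.049) covered 0. The interval of the RNA ratio lay above 0 in both media for 4 of 7 mRNAs and both rRNAs. Of these, mt-Nd2 was at -0.01 in leucine-free medium with total-count scaling. The share of all measured genes that meet either condition was not computed. With 1 library per group, a difference between the genotypes cannot be told apart from a difference between these cultures or libraries.

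**Figure D4:**
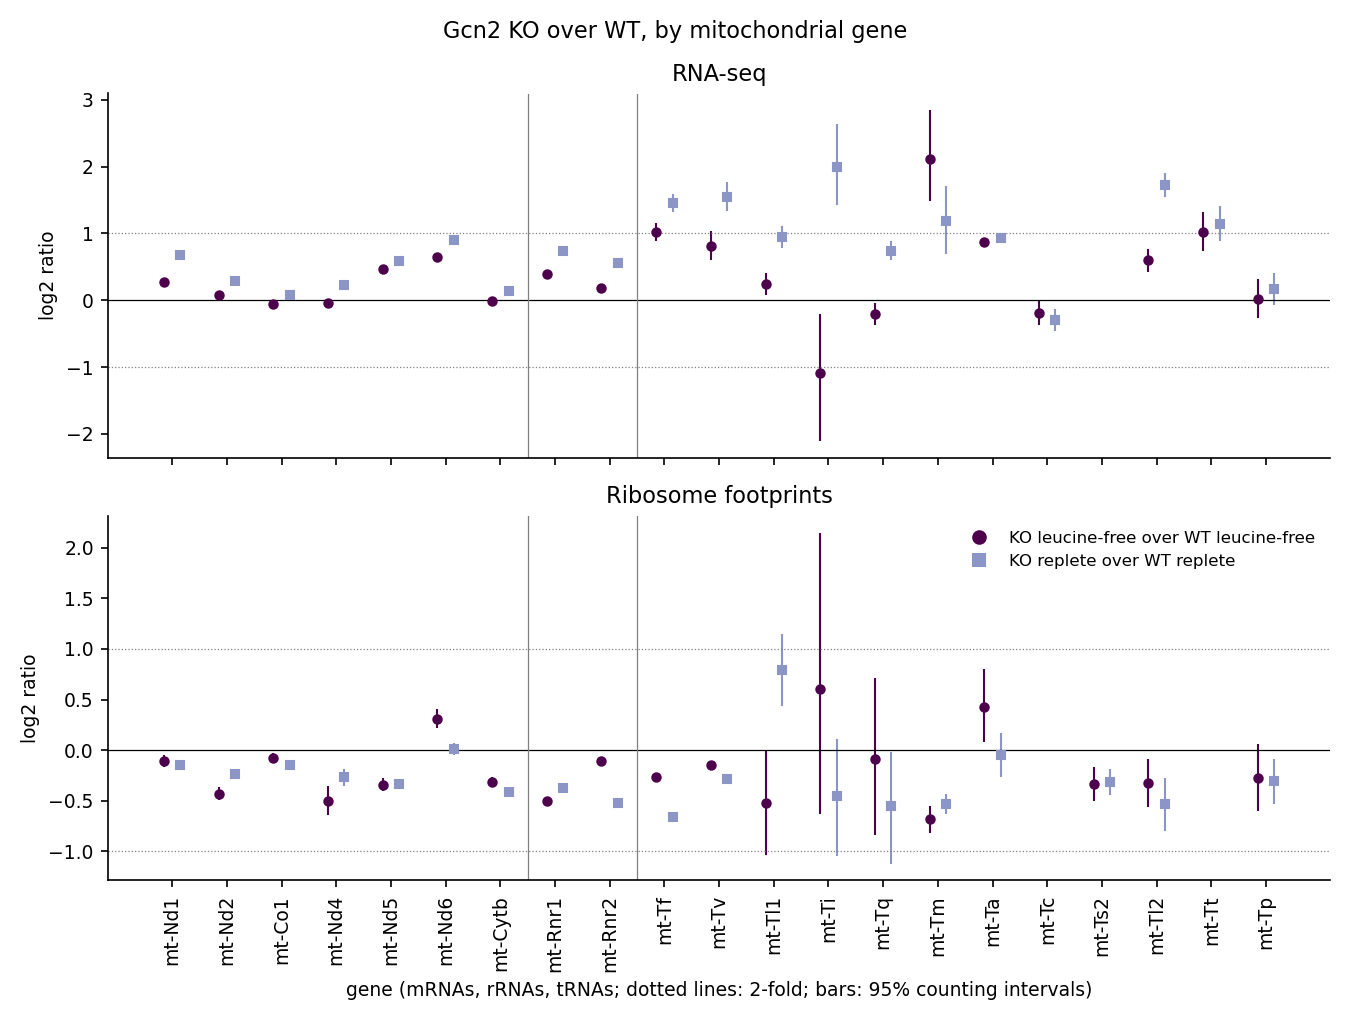
Log2 ratio of KO over WT for each measured mitochondrial gene in leucine-free and replete medium, in RNA-seq (top) and footprints (bottom), with 95% counting intervals and dotted lines at a 2-fold difference. In replete medium 19 of 20 genes lie above 0 in RNA-seq (mt-Co1, mt-Cytb and mt-Tp change sign with total-count scaling) and 17 of 19 lie below 0 in footprints. Of all measured genes in that medium, 6166 of 12250 lie above 0 in RNA-seq and 4742 of 9489 below 0 in footprints.

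Leucine-free medium was then set against replete medium within each genotype, to describe mitochondrial transcripts after 1 h without leucine in cells that lack or keep Gcn2. In RNA-seq of KO cells, leucine-free over replete, the log2 ratio was -0.01 (-0.014 to -0.005) for the summed mRNAs, 0.05 for the rRNAs and -0.16 (-0.19 to -0.14) for the tRNAs. Of 20 members 1 passed, against 5.13% of all measured genes: mt-Ti, with 14 leucine-free and 114 replete reads and a log2 ratio of -2.68 (-3.64 to -1.92). In RNA-seq of WT cells the values were 0.24 (0.23 to 0.24), 0.43 and 0.02 (-0.015 to 0.053) for the same classes. Of 20 members 0 passed, against 2.99% of all measured genes (1 with total-count scaling, mt-Tm, lower at -1.06). Scaled by total counted reads, the WT values were 0.11, 0.30 and -0.10. Without mt-Ta, and with the main scaling, the tRNA sum was at -0.315 (-0.371 to -0.259) in KO and 0.194 (0.129 to 0.259) in WT cells. The KO mRNA ratios ran from -0.08 for mt-Nd4 to 0.09 for mt-Nd2, and the WT mRNA ratios from 0.09 for mt-Nd5 to 0.40 for mt-Nd1, with mt-Nd5 and mt-Co1 just below 0 when scaled by total counted reads.

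In footprints, the summed mRNAs had nearly the same ratio in both genotypes, 0.25 (0.23 to 0.27) in KO and 0.23 (0.21 to 0.25) in WT cells, leucine-free over replete. The rRNA sum was at 0.37 in KO and 0.16 in WT cells, and the tRNA sum at 0.49 in KO and 0.26 in WT cells. The footprint-to-RNA ratio of the summed mRNAs was 0.26 (0.24 to 0.28) in KO cells, where the RNA ratio was -0.01, and -0.01 (-0.03 to 0.01) in WT cells. With total-count scaling it was 0.32 in KO and 0.10 in WT cells, so the WT value moved to the other side of 0 and past its counting interval. Among single mRNAs the leucine-free over replete footprint ratio was 0.44 in KO and 0.33 in WT cells for mt-Cytb, 0.28 and 0.48 for mt-Nd2, and 0.28 and 0.24 for mt-Nd1, with KO first. Mt-Nd4 was below 0 in both, at -0.44 (-0.56 to -0.33) in KO and -0.21 (-0.33 to -0.10) in WT cells. Mt-Nd6 was at 0.12 in KO and -0.18 in WT cells. No mRNA passed the 2-fold rule.

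A leucine tRNA was the single member that passed in footprints of both genotypes. Mt-Tl2 (ENSMUSG00000064366, MT:11671-11741, plus strand) reads the CUN leucine codons, and mt-Tl1 (MT:2676-2750) reads the UUR leucine codons. Mt-Tl2 had 357 footprint-library reads in KO leucine-free and 184 in KO replete cells, and 248 in WT leucine-free and 374 in WT replete cells. These are 82.8 CPM (74.4 to 91.8) and 28.4 CPM (24.5 to 32.9) in KO cells, and 103.6 CPM (91.2 to 117.4) and 41.2 CPM (37.2 to 45.6) in WT cells. Both leucine-free libraries were above both replete libraries. The log2 ratio of leucine-free over replete was 1.54 (1.28 to 1.81) in KO and 1.33 (1.09 to 1.56) in WT cells. Of 19 members, 1 passed in KO cells, against 2.6% of all measured genes, and 2 passed in WT cells, against 2.04%. The other in WT cells was mt-Ti, lower at -1.45 with 7 leucine-free and 77 replete reads. Set against reads of its neighbour mt-Nd5 in the same library, mt-Tl2 gave 0.0697 and 0.0271 footprint reads per mt-Nd5 read in KO cells without and with leucine, and 0.0689 and 0.0312 in WT cells.

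The RNA of mt-Tl2 lay on the other side of 0 from its footprints in KO cells and on the same side in WT cells. Its RNA reads numbered 617 in KO leucine-free and 968 in KO replete cells, and 536 in WT leucine-free and 321 in WT replete cells. The RNA log2 ratio of leucine-free over replete was -0.34 in KO and 0.78 in WT cells, and neither passed. Mt-Tl1 behaved otherwise in footprints, with 74 reads in KO leucine-free and 151 in KO replete cells, and 59 in WT leucine-free and 122 in WT replete cells. In CPM these are 17.2 and 23.3 in KO cells, and 24.7 and 13.5 in WT cells. Its log2 ratio was -0.44 (-0.86 to -0.03) in KO and 0.88 (0.40 to 1.33) in WT cells. The RNA log2 ratio of mt-Tl1 was -0.26 in KO and 0.45 in WT cells. The footprint ratio of mt-Tl2 to mt-Tl1 reads was 4.82 and 1.22 in KO cells without and with leucine, and 4.203 and 3.066 in WT cells. For footprint-to-RNA ratios of leucine-free over replete cells, 3 of 18 members passed in KO (mt-Ti, mt-Tl2 and mt-Tq, all higher) against 3.33% of genes in either direction and 1.88% higher, and 2 in WT (mt-Tm higher, mt-Ti lower) against 3.2%.

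**Figure D5:**
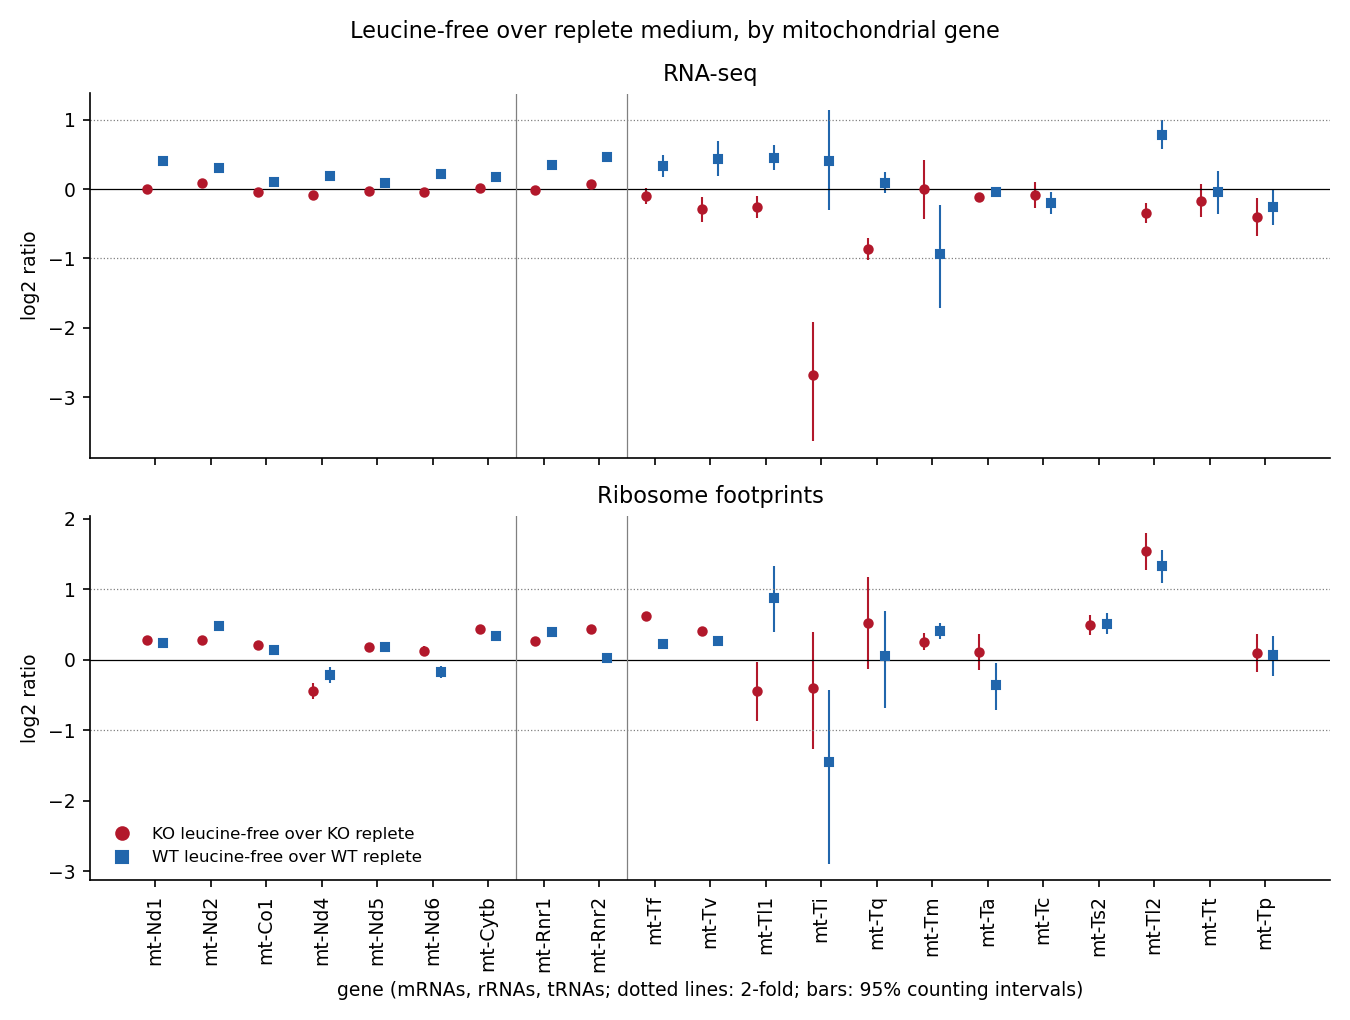
Log2 ratio of leucine-free over replete medium for each measured mitochondrial gene in KO and WT cells, in RNA-seq (top) and footprints (bottom), with 95% counting intervals and dotted lines at a 2-fold difference. Mt-Tl2 stands above the 2-fold line in footprints of both genotypes (1.54 in KO, 1.33 in WT), and mt-Nd4 is the mRNA below 0 in both.

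The nuclear genes that serve this genome were described from 3 lists of protein-coding genes. The shares set beside them below are of all measured genes, non-coding ones included. Of 10816 protein-coding genes measured in RNA-seq, 343 (KO) and 185 (WT) passed in leucine-free over replete. For KO over WT, 908 of them passed without and 742 with leucine. The list of mitochondrial DNA maintenance and transcription had 16 genes, all 16 measured in RNA-seq and 14 in footprints. In RNA-seq its median log2 ratio of leucine-free over replete was 0.10 in KO and 0.18 in WT cells, and 0 genes passed in either, where 5.13% (KO) and 2.99% (WT) of all measured genes passed. For KO over WT its RNA median was -0.23 without and -0.07 with leucine, and 1 gene passed: Mterf1a, a mitochondrial transcription termination factor, with 127 KO and 79 WT reads in leucine-free medium and a log2 ratio of 1.07 (0.661 to 1.502), where 10.6% of all measured genes passed. Mterf1a was below the count limit in footprints and was named after its values were seen. Ssbp1, the mitochondrial single-stranded DNA binding protein, had a lower footprint-to-RNA ratio in WT leucine-free than WT replete cells at -1.03, where 3.2% of genes measured in both assays passed. The list of RNA processing and decay had 21 genes found, of which 20 were measured in RNA-seq and 21 in footprints, and 0 passed in RNA-seq in any of the 4 comparisons, in which 2.99% to 10.6% of all measured genes passed. In footprints 1 passed, Fastk, known to be needed for the ND6 mRNA, with 169 KO and 39 WT reads in leucine-free medium and a log2 ratio of 1.25 (0.76 to 1.81), in the comparison where 7.39% of all measured genes passed. Fastkd1 had a lower footprint-to-RNA ratio in KO leucine-free cells, at -1.18 against KO replete and -1.03 against WT leucine-free cells, where 3.33% and 6.3% of genes measured in both assays passed.

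Of the translation factors 17 were found and measured in RNA-seq, and 16 in footprints. Their RNA median for leucine-free over replete was -0.03 in KO and 0.21 in WT cells, and for KO over WT it was -0.31 without and -0.15 with leucine. In RNA-seq 2 of 17 passed, both lower in KO than WT leucine-free cells, where 10.6% of all measured genes passed. The first was 1700021F05Rik, listed with the translation factors as an older name of Mtres1, at -1.23 with 95 KO and 293 WT reads. The second was Lars2, the synthetase that charges mitochondrial leucine tRNAs, at -1.72, while its footprint-to-RNA ratio was higher in the same comparison, at 1.67 on the log2 scale. Lars2 RNA was 1042 CPM in KO leucine-free and 1834 CPM in KO replete cells, and 3422 CPM in WT leucine-free and 1754 CPM in WT replete cells. Its footprints were 46.1 and 71.8 CPM in KO cells, and 47.6 and 48.4 CPM in WT cells. Lars2 RNA and footprints were thus both lower without leucine in KO cells. In WT cells the RNA was higher and the footprints were level within counting error. Lars2 RNA reads numbered 32327 to 139378 in a library and its footprints 114 to 465. Whether all these RNA reads are of Lars2 mRNA was not tested. Mtrf1, a mitochondrial release factor, had a footprint-to-RNA ratio that was 1.03 higher on the log2 scale in WT leucine-free than WT replete cells, and -1.15 in KO over WT leucine-free cells, where 3.2% and 6.3% of genes measured in both assays passed.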

How the data were processed

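The files as deposited hold raw read counts by gene, which the authors made with featureCounts 1.6.4 on exons of Ensembl annotation 96, genome build GRCm38, per the file headers. The command recorded there sets nothing for strand, multi-mapping or overlapping genes. The submitters' processing notes also name cutadapt, STAR and Subread. Gene classes came from RefSeq, which matched all 37 mitochondrial genes by start and end.

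Counts were scaled within each assay by TMM factors over protein-coding genes with a mean count of at least 30 (edgeR 4.0.16, R 4.3.3), and handled in Python 3.11.15 with numpy 2.4.6, pandas 2.3.3 and scipy 1.17.1. Figures were made with matplotlib 3.10.9. The 4 comparisons were KO over WT in each medium and leucine-free over replete in each genotype. With 1 library per group no count model was fitted and no p-value was computed. Log2 ratios use a prior count of 0.5. Ratios have 95% exact conditional binomial intervals, CPM exact Poisson intervals, shares Clopper-Pearson intervals, and footprint-to-RNA ratios Wald intervals. All cover counting error only. The ratio and the 2-fold rule were tested on simulated counts that carried counting error only. That test cannot say how often the rule passes between 2 cultures or libraries that differ by more than counting error. The background shares are the shares of all measured genes past the 2-fold rule.

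The members and gene lists were chosen with earlier results of these data known. By rule the text names all mRNAs, both rRNAs, both leucine tRNAs, tRNAs with a mean of at least 30 reads in an assay, pathway genes measured in both assays that passed in any comparison (Mterf1a, measured in RNA-seq only, is an addition), and nuclear genes in the same place as a member. Alternatives were other scalings (total counts, DESeq2 1.42.0 size factors, TMM without mitochondrial genes), other count limits, another prior count, other denominators and mRNAs outside the stretch matched on chromosome 1. Sequences of the mitochondrial genome were not used here.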

Additional observations from a re-analysis of the deposited data

Results flagged for a closer look

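For 8 of the 21 measured members, the leucine-free over replete log2 ratio lay on opposite sides of 0 in KO and WT cells in at least 1 assay, with both counting intervals clear of 0. None of these differences was tested, since each group is 1 library. The share of all measured genes that meet this condition was not computed, so the count has no comparator. With deep counts an interval clears 0 at a small size, as for mt-Rnr1 RNA in KO cells at -0.014 (-0.015 to -0.012). In RNA-seq these 8 were below 0 in KO and above 0 in WT cells. The WT minus KO difference was 1.13 for mt-Tl2 (-0.34 in KO and 0.78 in WT cells; counting interval of the difference 0.88 to 1.38), 0.73 for mt-Tv and 0.71 for mt-Tl1. It was 0.35 for mt-Rnr1, 0.27 for mt-Nd4, 0.26 for mt-Nd6, 0.14 for mt-Co1 and 0.12 for mt-Nd5. With total-count scaling the WT values of mt-Co1 and mt-Nd5 were at -0.02 and -0.03, on the same side as KO. In footprints the difference was 1.32 (0.72 to 1.92) for mt-Tl1, at -0.44 in KO and 0.88 in WT cells, and -0.30 for mt-Nd6, at 0.12 in KO and -0.18 in WT cells. The RNA difference of mt-Ti was larger, 3.08 (2.05 to 4.12), but its WT interval covered 0.

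Reads were also present on chromosome 1 genes that lie in the same place as mitochondrial mRNAs and belong to none of the comparisons above. The highest RNA counts in a library were 20 for Gm28661 (in the place of mt-Co2), 16 for Gm10925 (mt-Atp6), 39 for Gm28437 (mt-Co3), 288 for Gm10222 (mt-Nd4l) and 52554 for Gm28438 (mt-Nd3). In footprints the highest were 4 for Gm10925 and 405 for Gm28438. Gm28438 footprints numbered 405 in KO leucine-free and 205 in KO replete cells, and 190 in WT leucine-free and 324 in WT replete cells. Scaled, these are 93.9 CPM and 31.7 CPM in KO cells, and 79.4 CPM and 35.7 CPM in WT cells. The log2 ratio of leucine-free over replete was 1.57 (1.32 to 1.82) in KO and 1.15 (0.89 to 1.42) in WT cells, past the 2-fold rule in both. In RNA-seq it was 0.04 in KO and 0.68 in WT cells. Gm28438 was singled out after its values were seen, and which genome its reads came from was not tested.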

How the results depend on the processing

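No paired analysis was possible because every group is 1 library, and leaving out a library would leave a group empty, so that alternative was not run. Depth limits the footprint values of rare tRNAs most, since WT leucine-free cells had the fewest footprint reads and 3 reads there are 1.25 CPM. Raising the prior count to 2 left all 156 member values within their counting intervals. Scaling by total counted reads, rRNA included, moved the median of all measured protein-coding genes in RNA-seq by up to -0.17 on the log2 scale (KO over WT replete) and moved 28 summary values while 12 stayed within counting error or, for counts, within 1.5 times. The mRNA sums were then at 0.28 in KO over WT replete, 0.12 in KO over WT leucine-free, -0.05 in KO leucine-free over replete and 0.11 in WT leucine-free over replete in RNA-seq. In footprints they were at -0.20 in KO over WT replete and -0.14 in KO over WT leucine-free. Their footprint-to-RNA ratios were -0.48, -0.26, 0.32 and 0.10 in the same 4 comparisons. The rRNA sums were at 0.43, 0.14, 0.01 and 0.30 in RNA-seq and at -0.42, -0.18, 0.39 and 0.14 in footprints, in that order. The tRNA sums were at 0.76, 0.67, -0.20 and -0.10 in RNA-seq and at -0.39, -0.12, 0.51 and 0.24 in footprints. Members past the 2-fold rule in RNA-seq numbered 5 in KO over WT replete, 2 in KO over WT leucine-free and 1 in WT leucine-free over replete. For footprint-to-RNA ratios (an alternative added after seeing the data) 6 passed in KO over WT replete, against 8. The share of all genes passing is given here for the main scaling only, so these counts have no comparator.

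With DESeq2 size factors the values that moved past counting error did so by at most 0.01: the rRNA sums in RNA-seq were at 0.60, 0.22, 0.05 and 0.42 in that order of comparisons, and the mRNA sums at 0.20 in KO over WT leucine-free and -0.01 in KO leucine-free over replete. With TMM factors computed without mitochondrial genes, the RNA-seq mRNA sums were at 0.45 in KO over WT replete and 0.20 in KO over WT leucine-free, and the rRNA sums at 0.60, 0.22 and 0.43 in KO over WT replete, KO over WT leucine-free and WT leucine-free over replete.

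Summing only the 5 mRNAs outside the stretch matched on chromosome 1 gave RNA-seq values of 0.55 in KO over WT replete, 0.28 in KO over WT leucine-free, 0.00 in KO leucine-free over replete (on the other side of 0, with an interval that covers it) and 0.27 in WT leucine-free over replete. Footprint values were -0.27, -0.25, 0.30 and 0.27 in that order, and footprint-to-RNA ratios were -0.83, -0.53 and 0.30 in the first 3.

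The count of members past the 2-fold rule depended on the limit on low counts. With a mean of at least 10 reads it was 2 in KO and 1 in WT leucine-free over replete in RNA-seq, and in footprints 2 in KO leucine-free over replete and 1 in KO over WT replete. With at least 1 read it was 4, 1, 2 and 1 in the same places. With at least 100 reads, RNA-seq gave 0 in KO leucine-free over replete and 2 in KO over WT leucine-free, and footprints gave 1 in WT leucine-free over replete; KO over WT replete gave 4 in RNA-seq, against 6. For footprint-to-RNA ratios, also added after seeing the data, that limit gave 5, 1, 1 and 0 in KO over WT replete, KO over WT leucine-free, KO leucine-free over replete and WT leucine-free over replete. The cause of these shifts is the set of genes admitted. The share of all genes passing is given here for the main limit only, so these counts have no comparator.

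Expressed as a percentage of protein-coding reads, the mRNA shares in RNA-seq were 2.31, 2.38, 2.02 and 1.72 in KO leucine-free, KO replete, WT leucine-free and WT replete cells. The rRNA shares were 52.7, 52.0, 45.4 and 33.9, and the tRNA shares 0.0567, 0.0648, 0.0339 and 0.0335. In footprints the mRNA shares were 0.928, 0.751, 1.03 and 0.872, the rRNA shares 2.78, 2.07, 3.16 and 2.81, and the tRNA shares 2.27, 1.56, 2.49 and 2.07. The larger values follow from the smaller denominator.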
